A study of Mus musculus with 12 samples.

Results

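The respiratory chain of mitochondria is described here at the mRNA level in mouse hematopoietic stem cells, the blood-forming cells of the bone marrow. Its members were chosen by gene symbol. They are the rows whose name starts with mt-, Nduf, Uqcr or Atp5, or with Cox and a digit from 4 to 8, together with Sdha, Sdhb, Sdhc, Sdhd, Cyc1 and Cycs. Names containing -ps and the gene Cox4nb were left out. The rule took 104 of 20457 genes, 16 on the mitochondrial genome and 88 on nuclear chromosomes. The mitochondrial rows are 13 protein-coding genes, called mRNAs here with 1 row per gene, 2 ribosomal RNAs and 1 transfer RNA (mt-Tp). The nuclear rows are 76 subunits, 7 assembly or related factors and 5 alternative isoforms of subunits. A filter on low values was passed by 101 members, 15 mitochondrial and 86 nuclear. The other members are mt-Nd4l, Cox7a1 and Atp5l2, and they are given as levels only.

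The cells came from bone marrow of C57BL/6 mice and were sorted by surface IL27RA, a subunit of the receptor for the cytokine IL27. The groups were old IL27RA+, old IL27RA−, young IL27RA+ and young IL27RA− cells, where old is 28 months and young is 2 months. Each had 3 libraries, and each library was made from 50 sorted cells with Smart-Seq2, which copies whole transcripts and adds no molecular identifiers. The sources used here name no treatment and do not give the gates that define a stem cell. Whether the 3 libraries of a group are from different animals is not stated, so the p-values reflect the spread among these libraries alone, which could be technical. For old IL27RA− replicate 1, 1 label says young, but the title and the age say old, and old was used.

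Complex I (NADH dehydrogenase) and complex II (succinate dehydrogenase) pass electrons to coenzyme Q, complex III passes them to cytochrome c, and complex IV (cytochrome c oxidase) passes them to oxygen. Complexes I, III and IV pump protons, and complex V (ATP synthase) uses the proton gradient to make ATP. Mitochondrial DNA encodes core subunits of every complex but complex II, and all other subunits come from nuclear genes. Resting hematopoietic stem cells are known for low respiration and reliance on glycolysis, and for a turn to respiration when they divide or differentiate.

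Mitochondrial genes lie end to end and are cut from long precursors, so neighbouring rows can share bases. The sequences below show the 2 longest overlaps on one strand, because they decide which row a read can be given to, read from the GENCODE mouse transcripts. The capitals mark the bases that both genes of a pair contain.
mt-Atp8 end: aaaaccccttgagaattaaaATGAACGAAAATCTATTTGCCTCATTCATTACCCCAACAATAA
mt-Atp6 start: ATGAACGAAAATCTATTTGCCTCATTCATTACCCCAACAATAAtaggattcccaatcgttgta
mt-Nd4l end: caaaatctcaacctactacaATGCTAA
mt-Nd4 start: ATGCTAAaaattattcttccctcacta
The mt-Atp8 and mt-Atp6 genes share 43 bases, and mt-Nd4l and mt-Nd4 share 7. On opposite strands, mt-Nd5 and mt-Nd6 share 14 bases. The cDNA method does not mark the strand, so reads of mt-Nd6 cannot be told from reads of its antisense strand.

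Nuclear members were matched by symbol to a RefSeq promoter table (GRCm38.p6, 250 bases before to 50 after a start). Of the 88, 71 had an entry, with 76 promoters. Binding letters of NRF1, a factor known to act on many respiratory genes, were GCGCATGC on either strand. They occurred in 12 of the 76 member promoters (15.8%) and in 2.71% of all 32851 promoters in the table. Letters of the ETS factor GABPA, CCGGAAG on either strand, occurred in 17 member promoters (22.4%) and in 8.86% of all. Those of CREB and ATF factors (TGACGTCA) occurred in 6.58% and 1.79%, of YY1 (AAGATGG) in 13.2% and 6.34%, of ERR factors (CAAGGTCA) in 5.26% and 1.56%, and a TATA box (TATAAA) in 9.21% and 13.6%. The median member promoter had 19 CG pairs and the median promoter of the table had 7, so the base composition differs as well. Cycs, which encodes cytochrome c, and Cox6a1, a complex IV subunit, are shown because they hold the NRF1 letters, which are in capitals together with the GABPA letters.
Cycs promoter, chr6:50566520-50566819, minus strand: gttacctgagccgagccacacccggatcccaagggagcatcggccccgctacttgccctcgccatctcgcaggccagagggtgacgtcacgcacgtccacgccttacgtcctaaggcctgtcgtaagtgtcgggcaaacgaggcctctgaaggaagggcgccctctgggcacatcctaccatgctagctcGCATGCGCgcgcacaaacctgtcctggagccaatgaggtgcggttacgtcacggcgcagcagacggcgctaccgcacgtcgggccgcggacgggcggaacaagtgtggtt
Cox6a1 promoter, chr5:115348909-115349208, minus strand: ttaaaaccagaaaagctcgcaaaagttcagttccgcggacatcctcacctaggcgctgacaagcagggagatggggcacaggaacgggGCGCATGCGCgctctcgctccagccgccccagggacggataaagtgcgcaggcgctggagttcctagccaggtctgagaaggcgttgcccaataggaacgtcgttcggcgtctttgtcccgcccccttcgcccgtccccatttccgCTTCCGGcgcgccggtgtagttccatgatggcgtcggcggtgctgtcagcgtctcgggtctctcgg
These matches are letters in a window and were not tested as binding sites.

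Libraries held 11669083 to 24153167 reads in genes. Young IL27RA− replicates 1, 2 and 3 were the deepest, with 19085252, 21862962 and 24153167, against 11669083 to 17822817 in the other groups. Replicates 2 and 3 of that group had the fewest genes with a read, 13509 and 13978, against 14272 to 15955 elsewhere. Replicate 1 had 15403. Whether depth bears on the differences from young IL27RA− libraries was not tested. A floor of 3 reads corresponds to 1.93 to 3.77 normalized counts, which covers counting error only. Normalized counts are read counts divided by the library's size factor. Of 16 genes on a stem cell list, which includes Cd48 and Flt3, 15 passed the filter. Kit, Procr, Hlf and Meis1 stood at 4654 normalized counts or more in every library. Others stood lower, such as Tek and Ctnnal1, with lowest libraries at 157 and 76.5. Cd48, which stem cells lack, stood at 0 to 8.2. Unlike Cd48, Flt3 had reads in all 12 libraries. Its means were 94.5 in old IL27RA+, 110 in old IL27RA−, 553 in young IL27RA+ and 212 in young IL27RA− libraries. Old IL27RA− replicate 1 held 312300 normalized counts of the antibody gene Igkc, against 18.8 to 248 in the other libraries. Library weights estimated from the spread were lowest for replicate 2 of young IL27RA− cells, at 0.434, and replicate 1 of old IL27RA− cells, at 0.542. In bulk samples, fewer cells of a type and less RNA per cell cannot be told apart.

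Mitochondrial mRNAs made up a few percent of all reads in genes. Old IL27RA+ libraries held 3.49%, 4.01% and 3.12%, and old IL27RA− libraries held 4.99%, 4.32% and 3.29%. Young IL27RA+ libraries held 3.50%, 3.63% and 3.20%, and young IL27RA− libraries held 2.90%, 3.03% and 2.94%. The young IL27RA− libraries lay below all others and close together (mean 2.95% ± 0.0669, SD, n = 3), while the old IL27RA− libraries were spread the most (4.20% ± 0.856). The 88 nuclear members together took 0.614% to 0.866% of reads, and both ends of that range were young IL27RA− libraries. Per nuclear member read there were 3.34 to 6.86 reads of mitochondrial mRNAs.

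Per length, the mitochondrial mRNAs covered a wide range. On the scale of mean normalized count per 1000 transcript bases, mt-Co1, the catalytic subunit of complex IV, was highest at 157969, ahead of mt-Atp6 (93828), the proton channel subunit of complex V, and mt-Cytb (87861), the complex III subunit that binds coenzyme Q. Complex I mRNAs ranged lower, with mt-Nd1 at 47792, mt-Nd4 at 33768, mt-Nd6 at 11022, mt-Nd2 at 9362, mt-Nd5 at 8527 and mt-Nd3 at 435. The complex IV subunits mt-Co2 and mt-Co3 stood at 21083 and 11887, and mt-Atp8, the small partner of mt-Atp6 in complex V, stood at 4328. mt-Nd4l was at 1.53, from 1 or 2 reads in each of 4 libraries, while the row of mt-Nd4, which overlaps it, was among the higher ones. Whether overlapping genes lie on separate RNAs was not tested.

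The copy of mt-Nd4l in the nuclear genome bears on that value. Over all 294 bases of the annotated nuclear copy Gm10222, its sequence is identical to mt-Nd4l, and the row of Gm10222 held 19.9 to 137 normalized counts. Which of the pair the reads came from cannot be told. In all, 7 mitochondrial members have a nearly identical annotated nuclear copy. They include mt-Atp6, for which Gm10925 matches 678 of 681 bases, and mt-Co2 and mt-Co3, while no such copy of mt-Nd1 was found. Reads shared with these copies are uncertain.

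**Figure D1:**
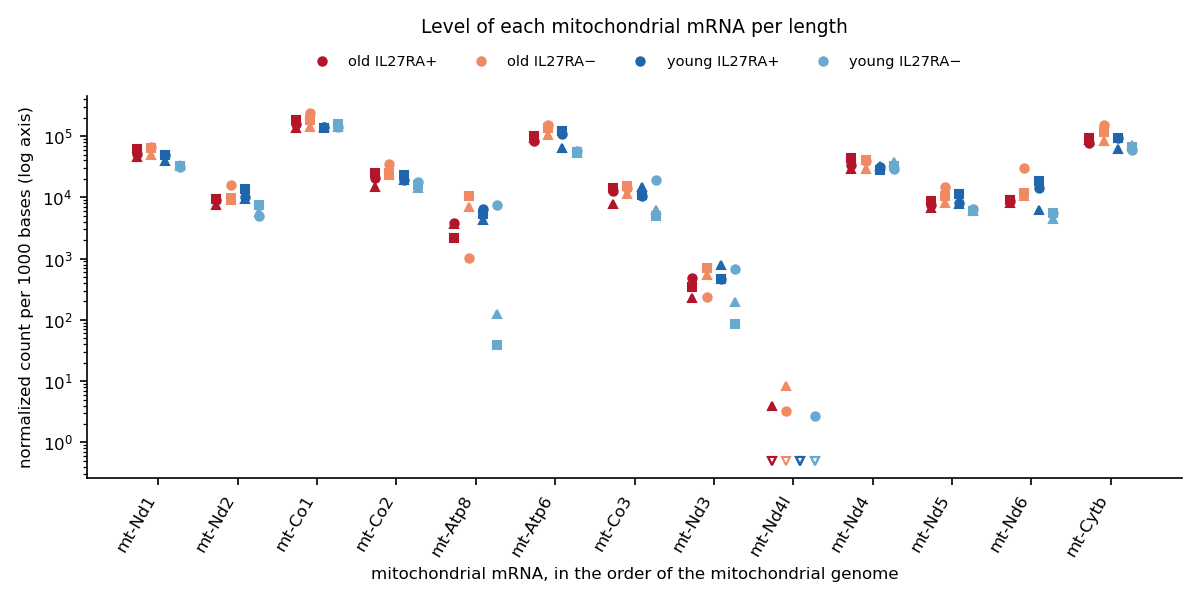
Normalized count per 1000 transcript bases (log axis) of the 13 mitochondrial mRNAs in the order of the mitochondrial genome, 1 point per library, coloured by group (circle, square and triangle for replicates 1, 2 and 3, open triangles for libraries with no read, drawn at the foot of the axis). mt-Co1 stands highest and mt-Nd4l lowest, and mt-Atp8 falls far below its other libraries in young IL27RA− replicates 2 and 3, where mt-Nd3 is lowest as well but close to its next libraries.

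Age was compared within each sorted fraction to ask how the respiratory chain differs between old and young stem cells. In the IL27RA− fraction, all 12 mitochondrial mRNAs past the filter had a positive difference of old over young, with a median of 0.85 on the log2 scale. Called at an adjusted p under 0.05 (limma over 14723 genes) were mt-Nd1 and mt-Atp6, both higher in old cells. These 2 were the only calls among the 101 tested members in any of the 7 comparisons. Of all genes tested, 0.672% were called in this comparison. At an unadjusted p under 0.05, limma had 11 members, 8 of them mitochondrial mRNAs, against 12.5% of all genes.

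mt-Nd1 encodes a core subunit of complex I near the coenzyme Q site. It had 64228, 61685 and 47221 normalized counts in old IL27RA− libraries, against 29710, 30899 and 32362 in young IL27RA− libraries. All 3 old libraries lay above all 3 young ones. The log2 difference was 0.88 ± 0.19 (SE; 95% interval 0.49 to 1.28), 1.85-fold higher in old cells (limma adjusted p = 0.0456). That value is close to the threshold, and 17 of 23 alternative settings put it above 0.05.

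mt-Atp6 had 102834, 90654 and 72117 normalized counts in old IL27RA− libraries, against 38504, 37564 and 35484 in young IL27RA− libraries. Its groups were apart as well, and the difference was 1.24 ± 0.23 (log2, SE; interval 0.74 to 1.73), 2.36-fold higher in old cells (limma adjusted p = 0.0239). The call ended, with an adjusted p of 0.092 and 0.0945, without old IL27RA− replicate 1 or 2, and with 0.0534 and 0.076 without young IL27RA− replicate 2 or 3. It also ended in a fit of these 2 groups alone (adjusted p = 0.205), which has fewer libraries for the spread.

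Other mitochondrial mRNAs of the IL27RA− fraction did not pass the test. mt-Nd6, the one mRNA of this set on the light strand, had 15483, 6087 and 5447 normalized counts in old and 2889, 2925 and 2312 in young libraries, a difference of 1.57 ± 0.39 (limma adjusted p = 0.0978). Old replicate 1 was far above the other old libraries. Without young IL27RA+ replicate 3, which shares the estimate of spread, mt-Nd6 was called. The differences of mt-Nd2 (0.91 ± 0.24), mt-Nd5 (0.82 ± 0.23), mt-Cytb (0.78 ± 0.24) and mt-Co2 (0.78 ± 0.22) had limma adjusted p-values of 0.122 to 0.171, and in each the groups did not overlap. mt-Co1 (0.32 ± 0.22), mt-Nd4 (0.12 ± 0.20) and mt-Co3 (0.67 ± 0.39) overlapped between the ages. Of the 12 mRNAs, 7 had groups that did not overlap, all higher in old cells, against 14.5% of all genes in either direction, 7.8% higher and 6.74% lower.

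The mitochondrial ribosomal RNAs, made from the same genome, gave small differences with wide errors. mt-Rnr2, the large subunit RNA, had 288630, 213910 and 115356 normalized counts in old and 163517, 227407 and 155399 in young IL27RA− libraries. The groups overlapped, with a difference of 0.10 ± 0.31 (limma adjusted p = 0.93). mt-Rnr1, the small subunit RNA, differed by 0.08 ± 0.30. Whether they differed from the mRNAs was not tested. The transfer RNA row mt-Tp held 40.4, 36.3 and 11.3 normalized counts in old IL27RA− and 14.3, 2.15 and 5.79 in young IL27RA− libraries, which overlapped (1.95 ± 1.23, limma adjusted p = 0.541). It held 15.7, 7.66 and 15.2 in old IL27RA+ and 15.0, 9.09 and 5.02 in young IL27RA+ libraries.

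**Figure D2:**
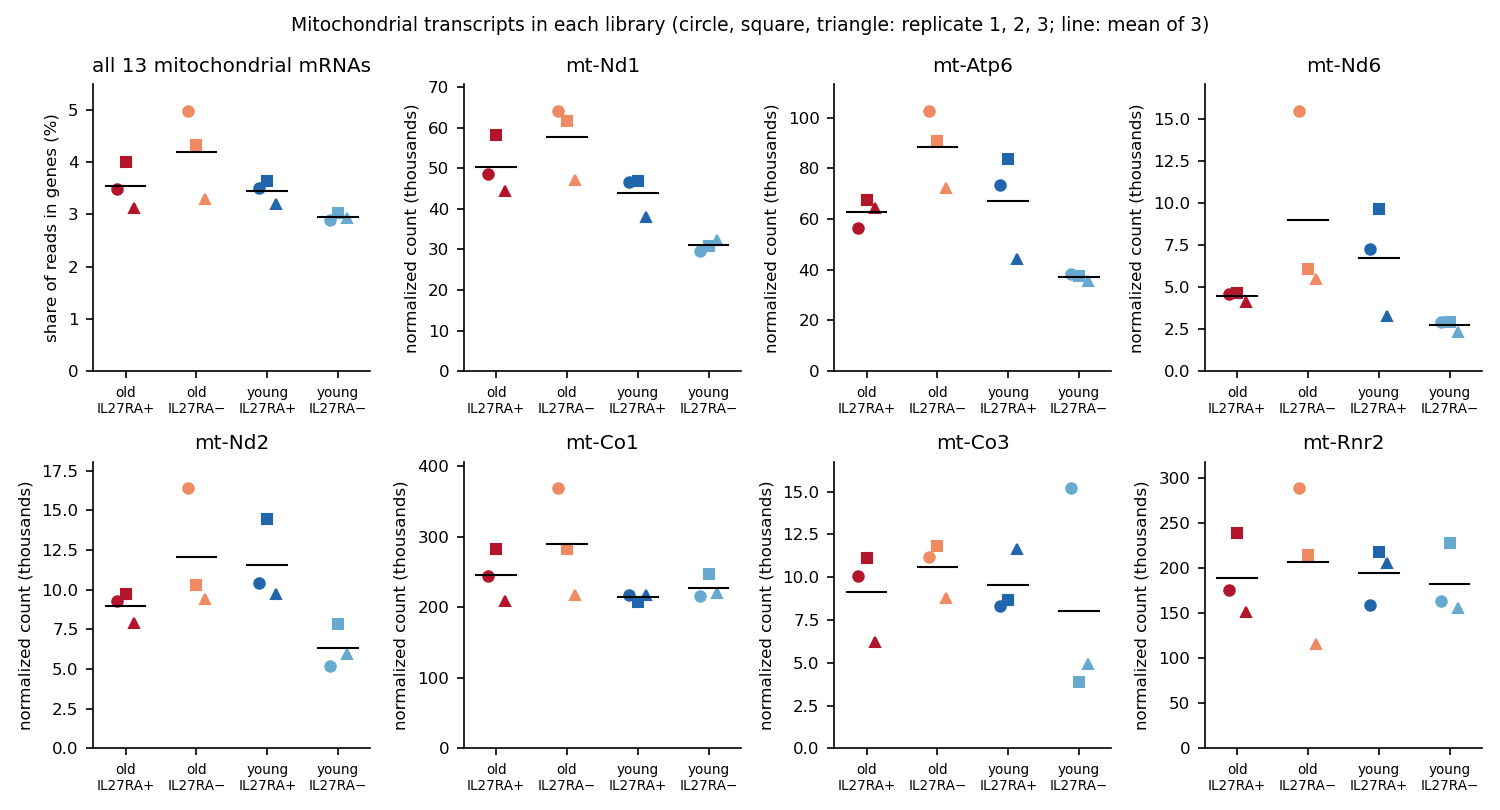
Share of reads in the 13 mitochondrial mRNAs (%) and normalized counts, in units of 1000, of 7 mitochondrial transcripts in each of the 12 libraries, by group, with the mean of 3 as a line. mt-Nd1 and mt-Atp6 stand apart between old and young IL27RA− libraries, while mt-Co3 and mt-Rnr2 overlap in all groups.

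In the IL27RA+ fraction the mitochondrial mRNAs showed no such shift. Only 4 of 12 differences of old over young were positive, with a median of −0.07, and none was called. No member of either genome was called, against 0.421% of all genes, and limma gave 3 of 101 members an unadjusted p under 0.05, against 8.89% of all genes. mt-Atp6 had 56556, 67352 and 64249 normalized counts in old and 73620, 83631 and 44197 in young IL27RA+ libraries, a difference of −0.05 ± 0.23 (limma adjusted p = 0.976). mt-Nd1 had 48689, 58276 and 44310 in old and 46670, 46878 and 37916 in young IL27RA+ libraries (0.20 ± 0.19). The old and young libraries overlapped for both genes. Over all 101 members, 5 had old libraries all above and 8 all below the young ones, against 9.11% and 7.8% of all genes and 16.9% in both directions.

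Averaged over the fractions, no member was called either, against 1.88% of all genes. mt-Nd1 came nearest, with 0.54 ± 0.13 (limma adjusted p = 0.0517), followed by mt-Atp6 with 0.59 ± 0.16 (adjusted p = 0.0844). All 12 mitochondrial mRNAs had a positive averaged difference (median 0.33), and 7 of the 101 members had an unadjusted p under 0.05, against 15.1% of all genes.

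The sorted fractions were compared within each age. In old cells, all 12 mitochondrial mRNAs were lower in IL27RA+ than in IL27RA− libraries by sign, with a median log2 difference of −0.41 (−0.25 without old IL27RA− replicate 1), and in young cells 10 of 12 were higher by sign, with a median of 0.53. No member was called in old cells (0.0272% of all genes were) or in young cells (0.0204%). At an unadjusted p under 0.05, limma had 4 of 101 members in old cells, against 5.38% of all genes, and 8 in young cells, against 8.21%. In old cells 4 members had IL27RA+ libraries all above and 6 all below the IL27RA− ones, against 7.25% and 5.39% of all genes and 12.6% in both directions. In young cells these were 7 above, 6 of them mitochondrial mRNAs, and 0 below, against 5.05% and 4.73% of all genes and 9.79% in both directions. In young cells, mt-Nd2, a complex I subunit, had 10438, 14456 and 9708 normalized counts in IL27RA+ and 5167, 7838 and 5966 in IL27RA− libraries. The groups were apart, and the difference was 0.87 ± 0.24 (limma adjusted p = 0.347). In old cells mt-Nd2 had 9296, 9741 and 7866 in IL27RA+ and 16419, 10289 and 9428 in IL27RA− libraries, which overlapped (−0.39 ± 0.24, adjusted p = 1).

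mt-Atp6 and mt-Nd6 had groups that did not overlap at either age, in opposite directions. The share of all genes with this pattern was not counted. For mt-Atp6 the IL27RA+ over IL27RA− difference was −0.49 ± 0.23 in old and 0.80 ± 0.23 in young cells. For mt-Nd6 it was −0.85 ± 0.39 in old and 1.18 ± 0.39 in young cells. The test of the difference between these differences, the interaction, gave −1.29 ± 0.33 for mt-Atp6 (limma adjusted p = 0.742) and −2.03 ± 0.55 for mt-Nd6 (adjusted p = 0.782). Limma called no gene at all in the interaction. At an unadjusted p under 0.05 it had 10 of 101 members, 8 of them mitochondrial mRNAs, against 5.18% of all genes. Limma voom on the recovered reads called no member in it either. Averaged over the ages, no member was called between the fractions, against 0.19% of all genes, and 1 member had an unadjusted p under 0.05 in limma, against 7.97%.

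Markers of other cells and of division moved with these groups. The summed level of 24 cell cycle genes was 5139 to 8587 normalized counts in old IL27RA− libraries, the lowest group, against 14312 to 20753 in young IL27RA− libraries, 21158 to 31145 in old IL27RA+ and 10661 to 24958 in young IL27RA+ libraries. All 24 passed the filter. Of 14 macrophage genes 13 had rows and 12 passed, with sums of 2332 to 9502 in old IL27RA+ libraries against 1124 to 1520 in old IL27RA− ones, and of 6429 to 10131 in young IL27RA+ libraries against 1703 to 2319 in young IL27RA− ones. Marco was at 0 in 11 of 12 libraries. Of 10 neutrophil and myeloid genes 6 passed, summing to 9052 to 13163 in old IL27RA− against 3646 to 4436 in young IL27RA− libraries, nearly all of it Prtn3, with Mpo and Ctsg at 0. The sums were 7796 to 10650 in old and 4075 to 5484 in young IL27RA+ libraries. S100a8, S100a9 and Camp had lower means in old than in young IL27RA− libraries (9.13, 4.12 and 3.26 against 10.6, 13.5 and 4.62). Ltf, Ngp and Elane had higher ones (18.4, 1.26 and 0.837 against 0). In IL27RA+ libraries the S100a9 mean was 45.0 in old and 106 in young, and that of Ngp 49.3 and 90.1. Of 6 T and NK cell genes 3 passed, summing to 1434 to 3043 in old IL27RA− against 15.0 to 455 in young IL27RA− libraries, mostly Klrb1c. Of 14 erythroid genes 10 passed, summing to 45756 to 52595 in old IL27RA+ against 31626 to 43091 in old IL27RA− libraries, mostly Car2. Of 7 stroma and endothelium genes 5 passed, summing to 1868 to 2125 in old IL27RA− against 2482 to 3086 in young IL27RA− libraries. Most of it was Emcn and Pecam1, and Emcn had means of 950 and 1944. Kdr went the other way, with means of 336 and 39.0. Cxcl12 and Lepr were at 0 in both groups, while Cxcl12 had a mean of 219 in young IL27RA+ libraries. Of 10 B and plasma cell genes 5 passed, summing to 1060 to 313748 in old IL27RA− against 710 to 1235 in young IL27RA− libraries. The part of these cells or of division in the mitochondrial values was not tested.

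Nuclear subunits gave smaller median differences than the mitochondrial mRNAs and spread more within groups. The median within-group SD was 0.41 (log2) over the 76 subunits and 0.29 over the 12 mitochondrial mRNAs, against 0.71 over all genes tested. No nuclear member was called in any of the 7 comparisons. In the IL27RA− fraction 57 of 76 subunits had a positive difference of old over young with a median of 0.30, against a median of 0.04 over all genes. That median was 0.12, 0.16 and 0.53 without young IL27RA− replicate 2, 3 and 1. In the IL27RA+ fraction 37 of 76 were positive, with a median of −0.00 against 0.05 over all genes. Between the fractions, 37 of 76 were higher by sign in old IL27RA+ cells (median −0.00) and 55 of 76 in young IL27RA+ cells (median 0.22, and 0.07 to 0.46 without single libraries).

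By complex, the IL27RA− age difference had medians of 0.31 over 36 nuclear subunits of complex I, −0.03 over the 4 of complex II, −0.15 over 9 of complex III, 0.40 over 11 of complex IV and 0.31 over 15 of complex V. The mitochondrial mRNAs of complex I (median 0.90 over 6) and complex IV (0.67 over 3) and mt-Cytb of complex III (0.78) lay above the median of the nuclear subunits of the same complex, although the highest nuclear subunit of each of these complexes lay above that value (1.72 in complex I). Of the 15 complex V subunits, 13 were positive. Over all 101 members, 14 had groups that did not overlap, which is close to the 14.5% of all genes.

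**Figure D3:**
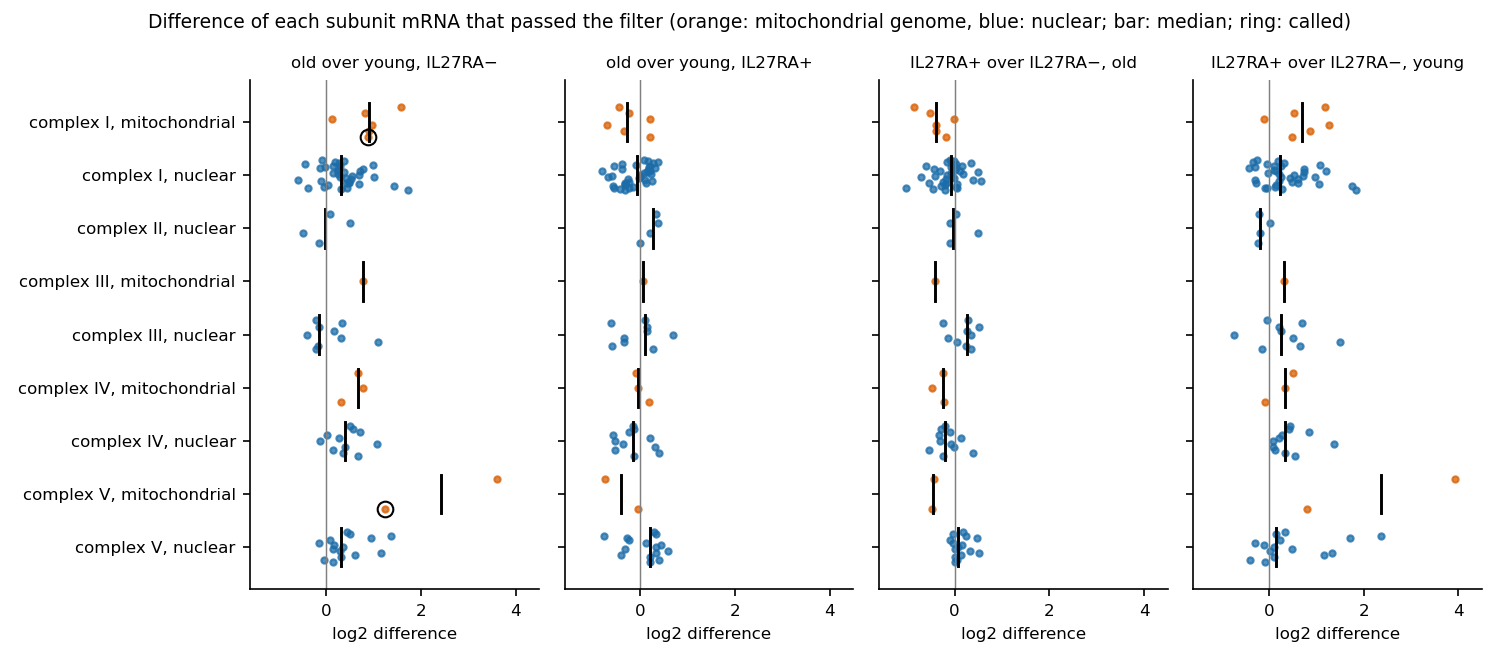
Log2 difference of each subunit mRNA past the filter in the 4 comparisons within a fraction or an age (orange for the mitochondrial genome, blue for nuclear genes, bars for medians, rings for called genes). The mitochondrial mRNAs lie right of 0 in old over young IL27RA− cells, left of 0 in IL27RA+ over IL27RA− old cells, and only mt-Nd1 and mt-Atp6 carry rings.

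Transcript length moved with the nuclear values. Nuclear subunits are short, with a median of 863 bases, against 2666 over the genes tested. The classes of length given here were chosen after the values were seen. The 20 subunits of up to 600 bases deviated from their 12-library mean by a median of 0.78 (log2) in young IL27RA− replicate 1, but by −0.75 and −1.01 in replicates 2 and 3 of the same group. Those are the extremes of the 12 libraries, which otherwise lay between −0.23 and 0.35. In replicate 3 all 20 short subunits were below their own mean, and in replicate 1 none was. The 30 subunits over 1000 bases deviated by 0.18, −0.26 and −0.08 in young IL27RA− replicates 1, 2 and 3.

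Among all genes, short transcripts were also lowest in young IL27RA− replicates 2 and 3. The 678 tested genes of up to 600 bases deviated by −0.67 and −0.59 in young IL27RA− replicates 2 and 3 and by 0.26 in replicate 1, which was within the range of the other groups, while the 12312 genes over 1000 bases stayed between −0.02 and 0.12 in every library. Ndufa1, a small complex I subunit, had 90.7, 4.29 and 6.44 normalized counts in young IL27RA− replicates 1, 2 and 3, and 22.0 to 71.6 elsewhere. Atp5k, a small complex V subunit, had 182, 2.15 and 21.2 there, and 23.1 to 143 elsewhere. Uqcr11, a small complex III subunit, had 296, 25.0 and 37.3. Cox6b1, a complex IV subunit, had 520, 34.3 and 104.

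The mitochondrial rows of mt-Atp8 and mt-Nd3, which have short annotated lengths, held the same contrast. It did not follow length in all mitochondrial rows. mt-Co3, annotated at 784 bases, held it too, with 15227, 3872 and 4912 normalized counts in young IL27RA− replicates 1, 2 and 3. mt-Nd6, annotated at 519 bases, did not, with 2889, 2925 and 2312. mt-Atp8, annotated at 204 bases, had 1505, 7.87 and 25.7 normalized counts in young IL27RA− replicates 1, 2 and 3. It had 205, 2187 and 1416 in old IL27RA− libraries. Its difference of 3.60 ± 1.35 (limma adjusted p = 0.287) rests on young replicates 2 and 3, since young replicate 1 lies within the old range. Without that replicate, mt-Atp8 and mt-Co3 were called between old and young IL27RA− cells, and mt-Atp8 between IL27RA+ and IL27RA− young cells, while mt-Nd1 was not (adjusted p = 0.0511). mt-Nd3, of 348 bases, had 239, 29.3 and 68.9 in the same young libraries. The row of mt-Atp6, which shares the 43 bases shown above with mt-Atp8, had 38504, 37564 and 35484 there, and mt-Nd1 was as even. Annotated length need not be the length of the RNA, and how reads were divided between overlapping rows is not known.

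Differences by length class were not the same in both fractions. In old over young IL27RA− cells the median was 0.50 over the 20 shortest subunits, with 19 positive, 0.29 over the 26 of intermediate length, up to 1000 bases, and 0.05 over the 30 longer ones, with 16 positive. The medians over all genes of these classes were 0.18, 0.22 and 0.02. In old over young IL27RA+ cells the order was reversed. The subunit medians were −0.32 with 5 of 20 positive, −0.02, and 0.18 with 20 of 30 positive, from the shortest class to the longest. Over all genes they were −0.17, 0.04 and 0.06. Leaving out young IL27RA− replicates 2 and 3 leaves that group with 1 library. The median of old over young IL27RA− cells over all 76 subunits was then −0.22, against 0.30 with them. The median of the mitochondrial mRNAs was then 0.69, against 0.85, with mt-Nd1 at 0.94 and mt-Atp6 at 1.19 (limma adjusted p = 0.352 and 0.357).

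**Figure D4:**
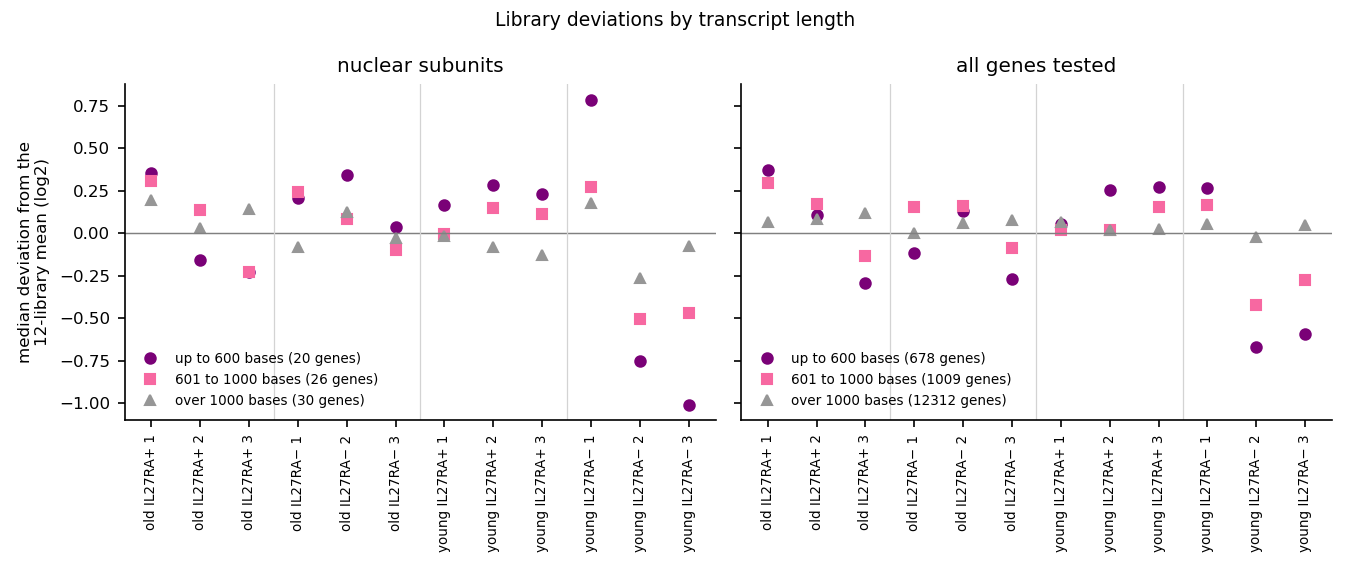
Median deviation of each library from the 12-library mean (log2) for nuclear subunits and for all genes tested, in 3 classes of transcript length. Short transcripts stand lowest in young IL27RA− replicates 2 and 3, and all genes over 1000 bases stay between −0.02 and 0.12, while nuclear subunits of that length spread more.

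Among single nuclear members, those with small p-values and the single subunits of the rule are given with their values. Uqcrc1, a core subunit of complex III, had 6369, 5566 and 6274 normalized counts in old IL27RA+ libraries, against 4595, 3232 and 3580 in young IL27RA+ libraries. The groups were apart, with a difference of 0.69 ± 0.24 (limma adjusted p = 0.393). In the IL27RA− fraction Uqcrc1 had 4155, 4633 and 5692 in old and 6096, 4551 and 8960 in young libraries, which overlapped (−0.39 ± 0.24, adjusted p = 0.535). Cyc1, the cytochrome of the same complex, had 2944, 2965 and 3223 in old IL27RA+ and 2438, 2469 and 2651 in young IL27RA+ libraries, also apart (0.27 ± 0.25, adjusted p = 0.847). The Uqcrc1 transcript is over 1000 bases, and its interaction of 1.08 ± 0.35 (adjusted p = 0.873) has the opposite sign to that of mt-Atp6.

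Atp5f1, which encodes a stalk subunit of complex V, had 4755, 4689 and 3661 normalized counts in old IL27RA+ and 2872, 3049 and 2748 in young IL27RA+ libraries (0.59 ± 0.22, limma adjusted p = 0.431). Cycs had 1056, 1353 and 816 in old IL27RA+ and 519, 774 and 355 in young IL27RA+ libraries, groups that were apart (1.01 ± 0.50, adjusted p = 0.593). In IL27RA− cells Cycs overlapped, with 410, 943 and 661 in old and 1151, 787 and 293 in young libraries. Cycs has 3 near copies in the annotation and Atp5f1 has 1, none with a row here, so reads shared with them are uncertain. Atp5b, the catalytic subunit of complex V, was the highest nuclear member per length at 8084 and differed by −0.04 ± 0.21 between old and young IL27RA− cells.

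Complex II, the one complex made wholly by nuclear genes, held a difference in the same direction in both fractions for Sdhc, a membrane anchor. Sdhc had 1739, 1384 and 1438 normalized counts in old IL27RA+ and 1290, 1104 and 1122 in young IL27RA+ libraries, and 1985, 1433 and 1474 in old IL27RA− against 1237, 1038 and 1164 in young IL27RA− libraries. All 6 old libraries lay above all 6 young ones. Sdhc was the only 1 of the 101 tested members with ages apart in the same direction in both fractions (0.99%), against 3.31% of all genes. Its averaged difference was 0.43 ± 0.17 (limma adjusted p = 0.248). Sdha, the flavin subunit, differed by −0.08 ± 0.19 in the same average, with a 95% interval of −0.48 to 0.33. Sdhb, the iron-sulfur subunit, had 357 to 741 normalized counts over the 12 libraries and Sdhd, the other anchor, had 2596 to 4597, and neither group of ages was apart in either fraction.

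Ndufa9, an accessory subunit of complex I, had the smallest p of the nuclear members between the sorted fractions of old cells. It had 2007, 2191 and 2530 normalized counts in old IL27RA+ and 1388, 1574 and 1570 in old IL27RA− libraries, without overlap (0.57 ± 0.22, limma adjusted p = 0.766). In young cells it had 2121, 1944 and 1637 in IL27RA+ and 1762, 1574 and 1539 in IL27RA− libraries (0.22 ± 0.22). Ndufs3, the complex I subunit with the most counts, differed by −0.07 ± 0.23 between the old fractions, and Ndufs1, an iron-sulfur subunit, had 2182, 2247 and 1924 in old and 1266, 761 and 1899 in young IL27RA− libraries, which did not overlap (0.79 ± 0.33, adjusted p = 0.342). Ndufab1, an acyl carrier protein of complex I, had 632, 711 and 470 in old and 808, 942 and 944 in young IL27RA− libraries, the one nuclear subunit of this comparison whose old libraries were all below the young (−0.59 ± 0.35, adjusted p = 0.515).

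Of the factors that are not subunits, Ndufaf1, which assembles complex I, had 544, 613 and 641 normalized counts in old IL27RA+ and 1125, 1218 and 725 in young IL27RA+ libraries. The groups were apart (−0.74 ± 0.32, limma adjusted p = 0.52). Cox7a2l, which is known to join complexes III and IV into supercomplexes, had the most counts among the nuclear rows named for complex IV. It had 18858, 16440 and 16274 normalized counts in old IL27RA− and 14998, 10578 and 10122 in young IL27RA− libraries, which did not overlap (0.55 ± 0.23, adjusted p = 0.345).

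Complex IV has alternative isoforms, and their shares varied. Cox4i2, an isoform of the regulatory subunit known from lung and from responses to low oxygen, had 6.47, 8.62 and 5.86 normalized counts in old IL27RA+ and 73.3, 10.2 and 95.3 in young IL27RA+ libraries. The groups were apart, with a difference of −2.45 ± 1.20 (limma adjusted p = 0.592). Replicate 2 of the old and of the young IL27RA+ libraries each held 9 reads of Cox4i2. Their order, and so the separation, rests on the size factors. In IL27RA− cells it had 41.4, 16.6 and 25.1 in old and 131, 58.7 and 21.9 in young libraries, which overlapped. Per length, Cox4i2 made up a median of 0.601% of Cox4i1 and Cox4i2 together in old IL27RA+, 2.08% in old IL27RA−, 5.89% in young IL27RA+ and 6.48% in young IL27RA− libraries. Cox4i1 itself had 398 to 1949 normalized counts. Ndufa4, which is now placed in complex IV, had 205 to 872.

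Cox6b2, known as the isoform of testis, was a sizeable part of its pair. Its share of Cox6b1 and Cox6b2 per length ranged from 18.9% to 31.9% in old IL27RA+, 15.5% to 38.2% in old IL27RA−, 22.1% to 47.9% in young IL27RA+ and 23.7% to 81.1% in young IL27RA− libraries. The highest share came from young IL27RA− replicate 2, in which the short Cox6b1 was at 34.3, while Cox6b2 itself had 132 normalized counts there. Cox7b2, a further testis isoform, had reads in 4 of the 12 libraries, at up to 27.6 normalized counts, beside 254 to 555 of Cox7b. Cox7a1, the heart and muscle isoform, stayed at 0 to 1.85, below the floor of 3 reads in each library, beside 261 to 611 of Cox7a2. Cox6a1 and Cox8a, the common isoforms of their pairs, had 598 to 1422 and 677 to 1779. Their muscle isoforms had no row here and so were not analysed. Atp5l2, a copy of a complex V subunit, had reads in 3 libraries and at most 2.39 normalized counts.

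**Figure D5:**
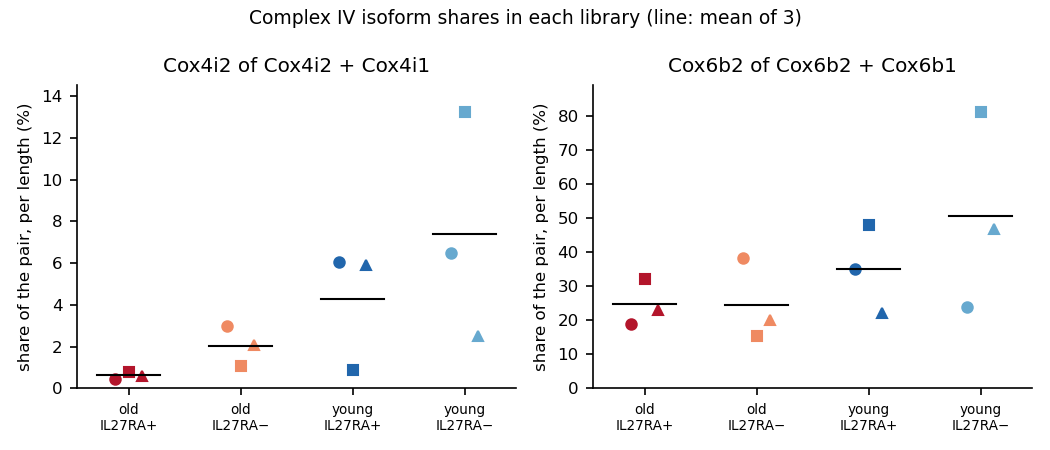
Share of Cox4i2 in Cox4i1 and Cox4i2, and of Cox6b2 in Cox6b1 and Cox6b2, per transcript length (%), in each library by group, with the mean of 3 as a line. Cox4i2 stays under 1% in old IL27RA+ libraries, and young IL27RA− replicate 2 holds the highest share of both pairs.

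Genes around the chain were tested in the same fit. Of 29 tested genes that copy, transcribe and process mitochondrial DNA and RNA, 1 was called in the averaged age comparison, against 1.88% of all genes. Hsd17b10, whose protein is part of the RNase that cuts mitochondrial precursors, had 4238, 4494 and 3458 normalized counts in old IL27RA+ and 2363, 1920 and 1866 in young IL27RA+ libraries, and 4538, 4014 and 3630 in old IL27RA− against 3120, 2410 and 2231 in young IL27RA− libraries. All 6 old libraries were above all 6 young ones (0.82 ± 0.15, limma adjusted p = 0.0116). The median of the 29 was −0.12, with 10 positive. No other gene of this list or of the lists below was called in any comparison.

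The 25 assembly factors outside the rule had a median age difference of 0.25 averaged over the fractions, with 19 positive, and Cox18, which inserts a complex IV subunit into the membrane, had the smallest p (0.85 ± 0.24, limma adjusted p = 0.0942). The 14 regulators of mitochondrial biogenesis had a median of 0.02, the 16 genes of the tricarboxylic acid cycle and pyruvate dehydrogenase −0.04, the 13 genes of coenzyme Q synthesis 0.08 and the 14 genes of other electron entry and inner membrane transport 0.30. In the cycle, Idh3b, a subunit of isocitrate dehydrogenase, differed by −0.41 ± 0.14 (adjusted p = 0.154), and in coenzyme Q synthesis Coq9 differed by 0.57 ± 0.19 (adjusted p = 0.159). Of the other lists, Sirt7, a deacetylase, differed by −0.51 ± 0.17 (adjusted p = 0.16) and Slc25a4, which exchanges ATP and ADP, by 0.41 ± 0.18 (adjusted p = 0.294). In the IL27RA− fraction 5 of the 16 cycle genes were positive (median −0.36), while all 12 mitochondrial mRNAs were. In the IL27RA+ fraction 13 of the 16 cycle genes were positive (median 0.24), and 4 of the 12 mitochondrial mRNAs were.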

How the data were processed

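The genome build and annotation behind the counts are not given in the sources. Per the submitters' processing notes, the tools were FastQC 0.11.5, TopHat2 2.1.1, HTSeq and DESeq2. The deposited values are log2 of a scaled read count plus 1. Undoing the log2 gave whole reads for 100% of values in every library, within 0.001 reads, so size factors and the reads in genes of each library (11669083 to 24153167) could be recovered. Of 20473 lines, 1 damaged line and 15 repeats were left out, and 19007 of 20457 genes (92.9%) matched GENCODE for lengths.

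Genes with 10 or more normalized counts in at least 3 of 12 libraries (14723) were tested on the deposited log2 values with limma 3.58.1 in R 4.3.3, with a mean for each of the 4 groups, a trended prior, 8 residual degrees of freedom and Benjamini-Hochberg adjustment over all genes. Called means an adjusted p under 0.05. In all, 7 comparisons were made. The fit was tested on simulated data in the averaged age comparison only, with planted changes larger than the differences of the called members. It was not tested that way for smaller changes or for the other comparisons. Same-numbered libraries were not treated as pairs. The alternatives were other filters, scalings and pseudocounts, library weights, limma voom, a replicate block, the 2 groups alone and leaving out each library. Levels per length divide by transcript length.

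The members and lists were chosen with earlier results of these data known. Genes named are the called ones, those with the smallest p, mitochondrial members, isoform pairs, complex II and cytochrome members, and the highest and lowest of each complex. Ndufs1 and the length classes were chosen after their values were seen.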

Additional observations from a re-analysis of the deposited data

Results flagged for a closer look

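Among the members, 2 mitochondrial mRNAs had an IL27RA difference whose direction differed between ages in every library, with groups that did not overlap at either age. The share of all genes with this pattern was not counted, so whether 2 is more than usual cannot be told. For mt-Nd6 the IL27RA+ over IL27RA− difference in old cells minus that in young cells was −2.03 on the log2 scale, with IL27RA+ libraries all below IL27RA− libraries in old cells and all above them in young cells. For mt-Atp6 the same value was −1.29. The difference itself was tested with the interaction term of limma and was not called for either gene (adjusted p = 0.782 for mt-Nd6 and 0.742 for mt-Atp6).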

How the results depend on the processing

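No direction of a called gene reversed. The 2 calls in old over young IL27RA− cells ranged from 0 to 3 when single libraries were left out. They were 1 with library weights, with no filter and with scaling to nuclear genes, and 0 with the 2 groups alone, without the 2 least weighted libraries and without young IL27RA− replicates 2 and 3. The last 2 alternatives were chosen after seeing the data. The mt-Atp6 difference stayed between 1.12 and 1.38 over 23 alternatives and lost its call in 7, and that of mt-Nd1 stayed between 0.80 and 1.02 and lost it in 17. Averaged over fractions, 0 calls became 1 with the replicate block, 1 with library weights and 2 with voom, and ranged from 0 to 1 without single libraries. In IL27RA− cells limma with the replicate block gave adjusted p-values of 0.0161 for mt-Atp6 and 0.0321 for mt-Nd1, which were called without it too. Of 18 same-numbered pairs, 1 correlated above 0.1. The IL27RA comparisons in young cells and averaged over ages ranged from 0 to 1 call without single libraries.

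Without young IL27RA− replicates 2 and 3, the nuclear subunit median was −0.22 in old over young IL27RA− cells, −0.17 averaged over fractions, −0.30 for IL27RA in young cells, −0.17 for IL27RA averaged over ages and 0.33 for the interaction, each with the opposite sign to the full data. The interaction median of the nuclear subunits ranged from −0.50 to −0.05 without single libraries. The interaction median of the mitochondrial mRNAs was −0.72 without the 2 least weighted libraries and −0.72 without those replicates. The cause was not tested. With ribosomal and transfer RNA rows included, the mitochondrial share was 4.82% in old IL27RA+, 5.54% in old IL27RA−, 4.83% in young IL27RA+ and 4.22% in young IL27RA− libraries. Over reads off the mitochondrial genome, the share of the mitochondrial mRNAs alone was 3.72%, 4.45%, 3.62% and 3.08% in the same order of groups. Members under the floor of 3 reads cannot be compared at this depth.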
